A study of Mus musculus with 17 samples.

Results

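The probes mmu-miR-192, mmu-miR-194 and mmu-miR-215 are 3 of the 569 that read mature mouse miRs on these arrays, and they were chosen by name as the products of the paired miR-194/miR-192 and miR-194/miR-215 gene clusters. Each was printed as 6 spots, and no probe read the other arm of these hairpins. MiR levels had been measured in kidneys of C57/BL6 mice aged 10 to 12 weeks, described as female in the sample labels and as male in the study's methods. The IRI samples were kidneys taken after 30 minutes of warm ischemia, unilateral by the study's methods, 4 times in the first week (days 1, 3, 5 and 7) and then at days 10, 14, 21 and 30. The sham samples were kidneys from operated controls on the same 8 days, and the naïve sample came from untreated mice. Each IRI and sham sample was RNA pooled from 3 mice, with 1 pool per surgery and day, so there were 8 IRI pools, 8 sham pools and 1 naïve sample, for which the number of mice is not stated. Nothing in the labels says that the pools of different days were repeats of one another, and the p-values below take the days of an arm as its replicates.

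These miRs are known as epithelial miRs. MiR-192 and miR-194 are enriched in kidney tubule, intestine and liver, their transcription is controlled by hepatocyte nuclear factors, and p53 raises them. MiR-192 and miR-215 have the same seed, the stretch near the 5′ end that pairs with target mRNAs, and miR-192 is known to target Zeb2, a repressor of E-cadherin. A whole kidney holds tubule cells of several segments together with vessels, stroma and blood cells, and in such a sample fewer cells of a type and less RNA per cell cannot be told apart.

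The mature sequences are shown because they decide which of the members a probe can tell apart. All 3 probe targets were identical to the mature sequence of the same name in RefSeq (build GRCm38.p6). The capitals mark the seed, bases 2 to 8, and the first pair shares it.
miR-192: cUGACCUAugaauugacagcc
miR-215: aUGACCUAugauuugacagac
miR-194: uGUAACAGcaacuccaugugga
Counted from 1 at the 5′ end, with the base of miR-192 first, miR-215 differs from miR-192 by C1A, A12U and C20A, all outside the seed. The array held no other miR with the seed of miR-192 and miR-215, and none but miR-194 itself with the seed of miR-194.

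The 3 miRs come from 2 loci, both on the plus strand. On chromosome 19, the Mir194-2 hairpin at chr19:6264643-6264728 lies 115 bases before the Mir192 hairpin at chr19:6264844-6264932. The gene table of GRCm38.p6 places Atg2a before this pair and the lncRNA Gm14963 after it, with no gene overlapping either hairpin. On chromosome 1, the Mir194-1 hairpin at chr1:185313319-185313385 lies 195 bases before the Mir215 hairpin at chr1:185313581-185313692, and both lie inside the bounds of Iars2, a mitochondrial isoleucyl-tRNA synthetase. Whether they lie in an exon or an intron of Iars2 is not given in the table used here. The hairpins are shown with the mature miR in capitals, since the pair of miR-194 hairpins differ around a mature miR that is the same in both.
Mir194-1: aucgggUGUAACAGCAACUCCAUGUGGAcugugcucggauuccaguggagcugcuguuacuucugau
Mir194-2: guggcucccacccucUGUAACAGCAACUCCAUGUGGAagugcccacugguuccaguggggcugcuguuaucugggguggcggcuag
Mir192: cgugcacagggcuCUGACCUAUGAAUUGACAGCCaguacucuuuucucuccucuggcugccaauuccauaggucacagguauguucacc
Mir215: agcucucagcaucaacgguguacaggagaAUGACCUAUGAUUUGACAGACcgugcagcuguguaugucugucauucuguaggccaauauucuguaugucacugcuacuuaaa
By sequence, the miR-194 probe therefore reads the sum of both loci, the miR-192 probe matches chromosome 19 and the miR-215 probe matches chromosome 1.

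On 8 arrays, the IRI pool of a day carried the dye Cy3 and shared the array with the Cy5-labelled sham pool of that day. No array had the dyes exchanged, so a mean difference between IRI and sham cannot be told apart from a dye bias of the probe, whereas a bias equal on all arrays drops out of a change with time. The naïve sample had an array to itself, in Cy3. The median of the 250 empty spots was 186 to 516 in the Cy3 samples and 33.0 to 43.9 in the Cy5 samples. A miR was taken as above background where its mean signal exceeded that median by more than 3 median absolute deviations (MADs). Of the 569 miRs, 162 reached a normalized intensity of 200 in at least 1 sample and were tested. The sham pool of day 30 stood apart by miR-122, the miR that defines liver. Its level was 3092 there and no more than 123 in any other sample, with 58.1 in the IRI pool on the same array. Because liver also makes miR-192 and miR-194, the comparisons of IRI with sham are given below with and without day 30. The channels of the day 5 array were named only A and B, and their samples were set by the authors' table, so day 5 is left out together with day 30 where it matters.

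MiR-192 and miR-194 were well measured in every sample, and miR-215 was not. The miR-192 signal stood 49.6 to 989 MADs above the empty spots in IRI, 546 to 3187 in sham and 49.0 in naïve. MiR-194 stood 19.98 to 287 MADs above them in IRI, 180 to 955 in sham and 11.8 in naïve. The MAD differed between the dyes, so these values say whether a probe was measured and not which arm held more. MiR-215 passed the limit of 3 MADs in 1 of 17 samples, the IRI pool of day 7, where it stood at 3.49. In the 8 sham pools miR-215 was between -0.05 and 2.16 MADs from the empty spots. The probe gave no level that could be followed over time, and miR-215 was not above background in the other 16 samples.

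**Figure D1:**
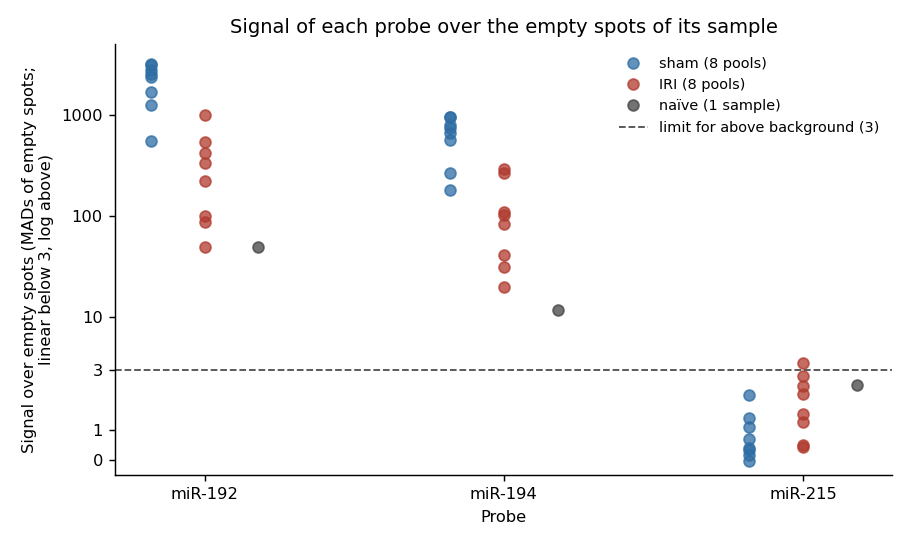
Mean signal of each probe above the empty spots of its own sample, in MADs of the empty spots (linear below 3, log above), with 1 point per sample and the limit of 3 as a dashed line. All points of miR-192 and miR-194 lie above the limit, and 1 of the 17 points of miR-215 does, at 3.49.

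Since the probes of miR-192 and miR-215 differ at 3 of 21 positions, the miR-215 signal was also set against that of miR-192 in the same sample. Its intensity over the empty spots was 4.97% of that of miR-192 in IRI on day 10 and 5.10% in naïve, the pair of samples with the highest empty spots. In the other 15 samples it was at most 0.66%, and it fell just below the empty spots, at -0.002%, in sham on day 3. The part of miR-192 RNA in this signal was not tested, and miR-215 RNA on the miR-192 probe cannot be read from these values.

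After normalization, the miR-215 intensity was 84.9 to 96.5 in IRI (mean 92.0 ± 4.07, SD, n = 8), 86.7 to 94.2 in sham (91.4 ± 2.47, SD, n = 8) and 88.1 in naïve. These values lie under the floor of 200. MiR-215 was therefore left out of the tests. When all 569 miRs were fitted, its mean log2 IRI/sham ratio was 0.01, with a 95% interval from -0.02 to 0.04 and an adjusted p of 0.645 in limma, an interval that describes the background and not a miR. A change of miR-215 was not detectable at this signal.

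MiR-192 was lower in IRI than in sham kidneys on 7 of 8 days, as 22.8% of the tested miRs were on 7 or more. With the naïve array quantile-normalized to the others, it lay below naïve in all 16 operated pools, a direction that turned under median scaling. Its normalized intensity in IRI, from the first day to the last, was 4450, 2751, 3951, 2684, 3045, 2172, 2553 and 1467. In sham it was 5490, 4438, 3511, 5169, 8545, 5620, 4781 and 4131 in the same order, and in naïve 10655.5. The mean was 2884 ± 949 (SD, n = 8) in IRI and 5211 ± 1521 (SD, n = 8) in sham. The highest IRI pools were those of days 1 and 5 and the lowest was that of day 30, while in sham the highest was day 10 and the lowest was day 5. Over all days the arms overlapped, because the IRI pools of days 1 and 5 exceeded the sham pool of day 5. On days 14, 21 and 30 they did not, with 1467 to 2553 in IRI and 4131 to 5620 in sham, and such a separation on the late days was found for 25.9% of the tested miRs.

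MiR-194 in IRI was lowest on the 3 late days. In sham it lay close to or above its naïve level under quantile normalization, and 3.44 above it on the log2 scale, on average, under median scaling. Its normalized intensity in IRI, in the order of the days, was 1628, 1168, 1496, 1707, 1066, 665, 695 and 671. In sham it was 1467, 2044, 1934, 2702, 1926, 1513, 1572 and 1498, against 1545 in naïve. The mean was 1137 ± 437 (SD, n = 8) in IRI and 1832 ± 420 (SD, n = 8) in sham. The IRI pools fell into a higher set, days 1 to 10, and a lower set, days 14 to 30, and the coefficient of variation between the spots behind 1 of these values was 4.55% to 18.5%. Sham was highest on day 7, and the IRI pool of that day was also the highest of its arm. On the late days the arms did not overlap, with 665 to 695 in IRI and 1498 to 1572 in sham, a separation found for 25.9% of the tested miRs.

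**Figure D2:**
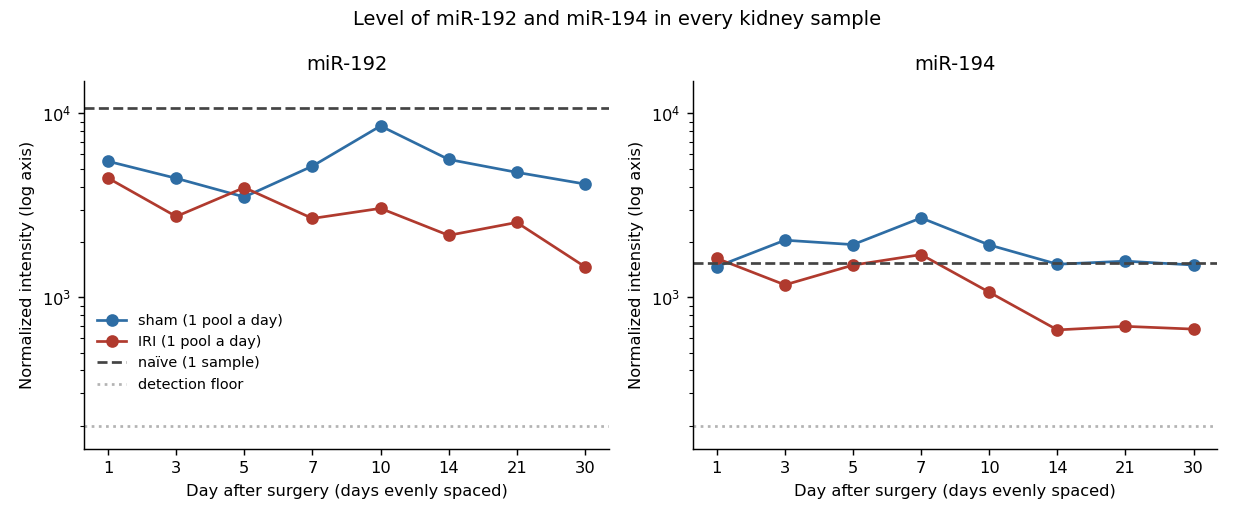
Normalized intensity (log axis) of miR-192 and miR-194 by day after surgery, with 1 point per pool of 3 mice for IRI (red) and sham (blue), the naïve sample as a dashed line and the floor of 200 as a dotted line. On days 14 to 30 both miRs were lower in every IRI pool than in every sham pool, as 25.9% of the tested miRs were. All 16 operated pools lie below naïve for miR-192 with this normalization, but not under median scaling.

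Within the shared array, the level of miR-192 in IRI as a share of sham was 81.1%, 62.0% and 113% at days 1, 3 and 5, then 51.9% and 35.6% at days 7 and 10, and last 38.7%, 53.4% and 35.5% at days 14, 21 and 30. The shares of days 10, 14 and 30 were the lowest, and day 5 was the exception in direction. For miR-194 the share was 111%, 57.2% and 77.4% at the early days, 63.2% and 55.3% at the middle ones, and 43.9%, 44.2% and 44.8% at the late ones. On day 30 both miRs were below sham, by 1 IRI pool against 1 sham pool, the one with miR-122. For miR-194, day 1 was the exception in direction. The standard error of the log2 ratio between the 6 spots was 0.04 to 0.07 for both miRs, and all 16 ratios lay more than 2 such errors from 0, though an error between spots says nothing of the spread between mice.

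The mean over the 8 arrays was tested with limma against 0, with Benjamini-Hochberg adjustment over the 162 tested miRs. MiR-192 in IRI was at 54.4% of sham, a mean log2 IRI/sham ratio of -0.88 with an SE of 0.19 and an adjusted p of 0.0126 in limma, and it was lower on 7 of 8 days. MiR-194 was at 59.1% of sham, at -0.76 with an SE of 0.15 and an adjusted p of 0.00982 in limma, also lower on 7 of 8 days. In this comparison 17.9% of the tested miRs were called lower and 18.5% higher, 36.4% in all, and the calls of the members are to be read against these shares. By size, the mean ratio of miR-192 was the 6th lowest of the 162 and that of miR-194 the 11th lowest, against a median of -0.04 over all of them. An exact two-sided sign-flip permutation test over the 8 arrays gave p = 0.015625 for each, where 8 arrays can go no lower than 0.0078125. Both miRs belong to a list of 9 that the study had carried over from its earlier work on IRI and sham kidneys, so these calls are not independent evidence of the direction.

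The calls of both miRs remained with any 1 day left out, when the mean log2 ratio of miR-192 was between -1.03 and -0.79 and that of miR-194 between -0.89 and -0.70. Without day 30 alone, they were -0.79 and -0.70, with adjusted p of 0.0274 and 0.0245 in limma. Without days 5 and 30, which removes the array with unnamed channels and the pool with miR-122, they were -0.95 and -0.76, with adjusted p of 0.0139 and 0.0268 in limma. When loess was replaced by scaling each channel to its median, miR-194 was at -0.64 with an adjusted p of 0.0585 in limma. That scaling moved the median of all tested miRs to 0.20, and relative to that median miR-194 lay at -0.84 and miR-192 at -1.13. It also moved the calls from 29 lower and 30 higher to 9 lower and 34 higher. In sham on day 30, the pool with miR-122, the levels of miR-192 (4131) and miR-194 (1498) lay within the range of the other sham pools, at 3511 to 8545 and 1467 to 2702.

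**Figure D3:**
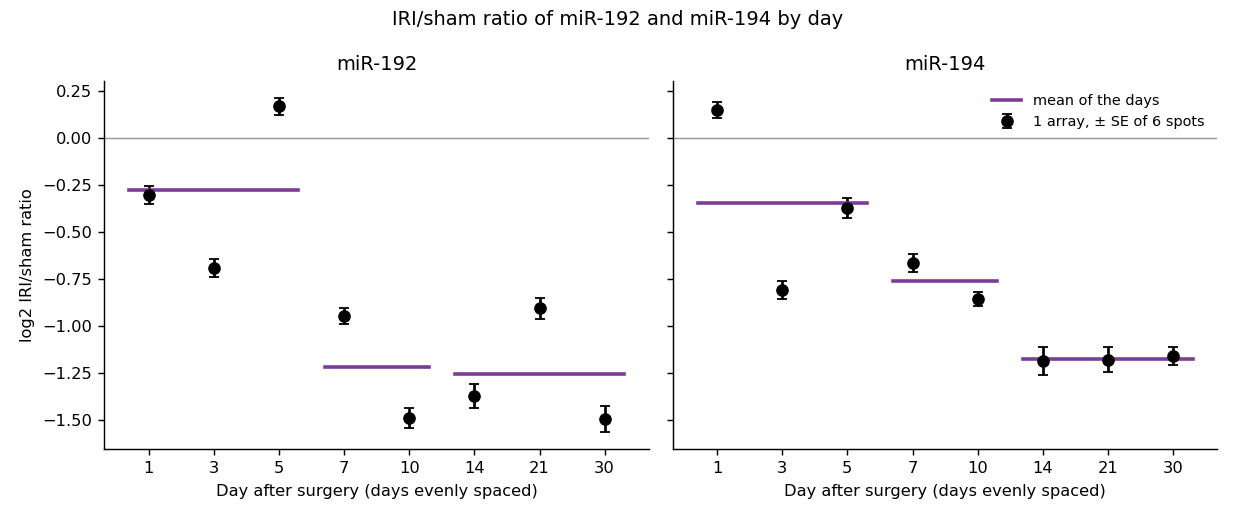
Log2 IRI/sham ratio of miR-192 and miR-194 on each of the 8 arrays, with the standard error of the 6 spots, and the mean of the early (days 1, 3 and 5), middle (days 7 and 10) and late days (14, 21 and 30) as lines. The mean of miR-194 went from -0.34 to -0.76 and -1.17 between the periods, and that of miR-192 from -0.27 to -1.22 and -1.26.

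The IRI/sham ratio of both miRs had a lower mean on the late than on the early days, but the difference did not pass the test. For miR-192 the mean log2 ratio was -0.27 ± 0.43 (SD, 3 days) early, -1.22 in the middle and -1.26 ± 0.31 (SD, 3 days) late. For miR-194 it was -0.34 ± 0.48 (SD, 3 days) early, -0.76 in the middle and -1.17 ± 0.01 (SD, 3 days) late. Late minus early, the difference was -0.98 (SE 0.29) in miR-192 and -0.83 (SE 0.24) in miR-194. Neither passed the threshold, with an adjusted p of 0.105 for both in limma, in a comparison where 5.56% of the tested miRs did. Without day 3, miR-194 passed it, at -1.06 with an adjusted p of 0.0295 in limma. Without day 30 the differences were -0.86 and -0.84 (adjusted p = 0.238 and 0.226, limma), and without days 5 and 30 they were -0.64 and -0.85 (adjusted p = 0.394 and 0.344, limma). Under median scaling they shrank to -0.23 and -0.06 (adjusted p = 0.820 and 0.978, limma).

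Over all days, the slope of the log2 ratio per doubling of time after surgery was -0.25 for miR-192 (SE 0.10, adjusted p = 0.191, limma) and -0.26 for miR-194 (SE 0.06, adjusted p = 0.0566, limma). Neither slope passed, and 2.47% of the tested miRs did. By exact permutation of the 8 ratios over the days, a test of each miR alone, p was 0.0619 (miR-192) and 0.00278 (miR-194). The miR-194 slope passed the threshold without day 3 (-0.30, adjusted p = 0.0442, limma). It also passed from the authors' processed values (-0.33, adjusted p = 0.0364, limma). Under median scaling the slopes were -0.08 for miR-192 and -0.09 for miR-194, with adjusted p of 0.798 and 0.748 in limma, so their size depended on the scaling. The slopes of miR-192 and miR-194 were -0.24 and -0.29 without day 30, and -0.21 and -0.28 without days 5 and 30.

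**Figure D4:**
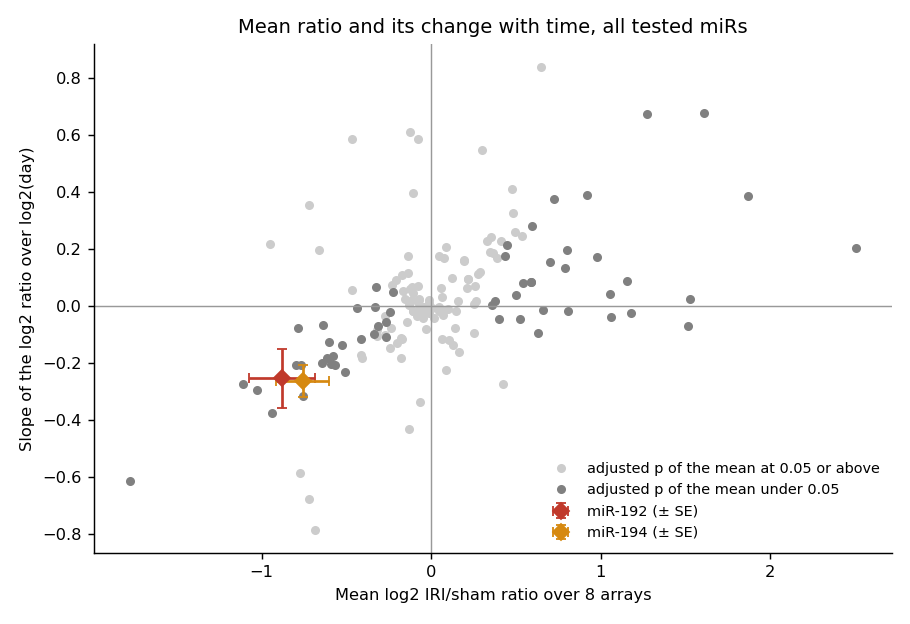
Mean log2 IRI/sham ratio (x) against the slope of that ratio over log2(day) (y) for the 162 tested miRs, dark where the mean had an adjusted p under 0.05, with miR-192 and miR-194 and their standard errors in colour. Both members lie low on both axes and within 1 standard error of each other.

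Within the IRI arm, the slope of the log2 level per doubling of time was -0.26 in miR-192 (SE 0.07) and -0.29 in miR-194 (SE 0.08). The adjusted p was 0.0523 and 0.0563 in limma, just outside the threshold that 8.64% of the tested miRs passed, and the exact permutation p was 0.0140 and 0.0170. Without day 30 the slopes were -0.19 and -0.28, with adjusted p of 0.154 and 0.137 in limma. In sham the slopes were close to 0, at -0.002 for miR-192, with a 95% interval from -0.21 to 0.21, and -0.03 for miR-194, with an interval from -0.20 to 0.14. The adjusted p was 0.997 for both in limma, and 1.23% of the tested miRs passed. Without day 30 the sham slopes were 0.05 and 0.007, and without day 1 they were 0.04 and -0.18 (adjusted p = 0.915 and 0.395, limma). Levels on different arrays rest on the quantile step between arrays, which the ratios do not need. Each level was the quantile-normalized mean of both channels, plus an equal share of the log2 ratio for IRI and minus it for sham. The slopes of the arms are therefore not single-dye readings, and not independent of each other or of the ratio slope. Under median scaling the sham slopes were -0.25 for miR-192 and -0.19 for miR-194, close to the IRI slopes of -0.33 and -0.28 under that scaling, and none of the 4 passed (adjusted p from 0.484 to 0.572, limma).

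Against the naïve sample, miR-192 was lower in both arms and miR-194 in most IRI pools. The mean log2 difference of miR-192 from naïve was -1.96 ± 0.50 in IRI (SD, n = 8) and -1.08 in sham, so that naïve was 3.88 times the IRI level and 2.11 times the sham level. Naïve carried Cy3, and the levels of IRI (Cy3) and sham (Cy5) each drew on both channels of their array. In the values of both arms against naïve, the dye and the surgery therefore cannot be told apart. MiR-194 lay -0.54 ± 0.58 from naïve in IRI (SD, n = 8), below it in 6 of 8 pools, and 0.22 above it in sham, where 3 of 8 pools were below. Of the tested miRs, 24.1% were at least 2-fold lower than naïve in IRI and 21.6% in sham. There was 1 naïve sample, on an array with the lowest signal, so none of this was tested. Under median scaling, the log2 difference from naïve was 2.52 for miR-192 in IRI and 3.45 in sham, and 2.80 and 3.44 for miR-194. Whether operated kidneys held more or less of these miRs than naïve kidneys therefore depends on how the naïve array is scaled.

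MiR-192 and miR-194 have hairpins side by side on chromosome 19 and are known to be cut from a shared primary transcript there. Their log2 IRI/sham ratios had a Pearson's r of 0.745 over the 8 arrays (exact permutation p = 0.0327, adjusted 0.118) and a Spearman's rho of 0.667 (exact permutation p = 0.0831, adjusted 0.249). Without the arrays of days 5 and 1, the farthest from the median of miR-192, r was 0.408, so the relation rested in part on these days, and without day 30 it was 0.704. Of all 13041 pairs of tested miRs, 4.59% had an r as high. In the IRI levels r was 0.769 (exact permutation p = 0.0214, adjusted 0.118) with a rho of 0.714 (exact permutation p = 0.0576, adjusted 0.249), 0.656 without days 30 and 1, and 0.717 without day 30 alone. In the sham levels r was 0.03 (exact permutation p = 0.948, adjusted 0.948) with a rho of -0.19 (exact permutation p = 0.665, adjusted 0.665), and -0.09 without day 30. These IRI and sham levels draw on both channels of an array, so their r and that of the ratio are not separate readings. Under median scaling the 3 values of r were 0.843, 0.923 and 0.813, each with an adjusted p under the threshold. How many of all pairs had an r as high under that scaling was not counted. Over the 9 relations computed, among the 3 pairs and 3 kinds of value, none had an adjusted p under 0.05 before that change of scaling.

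Day by day, the ratio of miR-192 was set against that of miR-194 as a log2 difference. It was -0.45, -0.28, -0.64, -0.18 and -0.34 at days 1, 7, 10, 14 and 30, where miR-192 was the lower, and 0.12, 0.54 and 0.27 at days 3, 5 and 21, where it was the higher. The mean difference was -0.12 ± 0.40 (SD, n = 8), and the exact sign-flip permutation test gave p = 0.421875. A difference in the ratio between the miRs was not detected. The relation of either miR to miR-215 was computed as well, but it uses values of a probe below background and is not read.

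The miRs whose log2 IRI/sham ratio ran most like that of miR-192 over the 8 arrays, among 161 compared, were miR-103 (r = 0.913), miR-744 (0.893), miR-107 (0.885) and miR-200a (0.868). MiR-103 and miR-107 have probes that differ at 1 position, so they can share signal. MiR-200a, a miR-200 family member that keeps epithelial cells from turning mesenchymal, was lower in IRI, at -1.11 with an SE of 0.30 and an adjusted p of 0.0229 in limma. For miR-194 they were miR-429 (r = 0.912), miR-451 (0.900), miR-145 (0.818) and miR-30c-2* (0.813). MiR-429 is also of the miR-200 family, miR-451 is the red cell miR and miR-145 a smooth muscle miR. MiR-194 itself was not among the 4 closest to miR-192, nor miR-192 among those closest to miR-194. With 161 profiles over 8 points, high values of r are found by choice alone, and they are given as a description with no p.

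**Figure D5:**
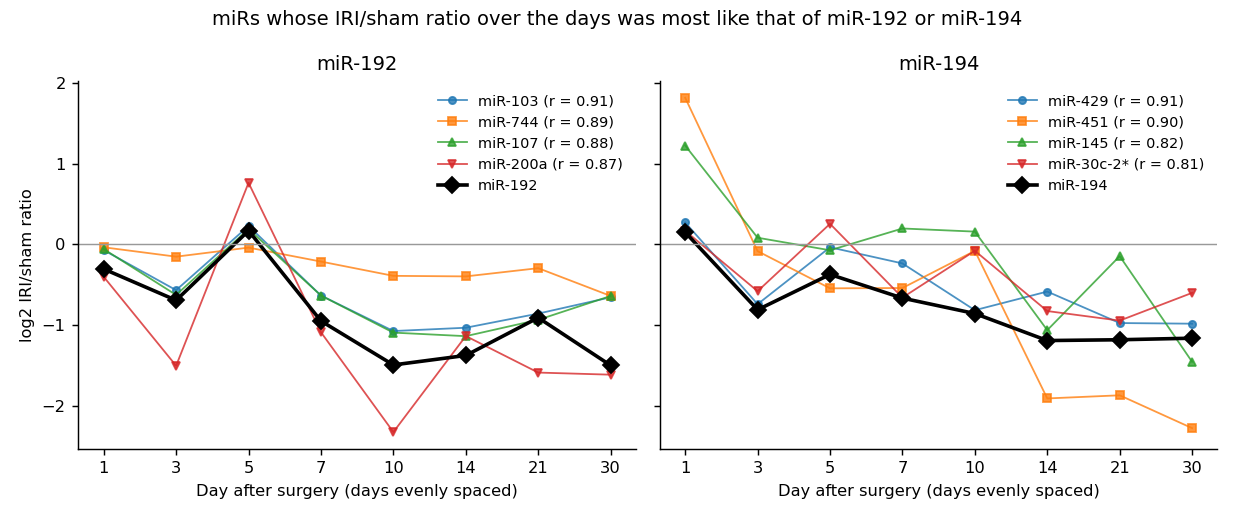
Log2 IRI/sham ratio by day for miR-192 (left) and miR-194 (right) in black, each with the 4 of 161 tested miRs of highest Pearson's r over the 8 arrays. The day 5 rise of miR-192 is shared by miR-103, miR-107 and miR-200a, and on day 1 miR-194 and its 4 closest all lie above 0.

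Other miRs known from kidney epithelium did not move as a block with miR-192 and miR-194. Of 13 such miRs (the miR-30 and miR-200 families, miR-204, miR-10a and miR-10b), 11 were above background in all 17 samples, and these 11 were tested. The ratio of 4 was lower in IRI, from miR-200a at -1.11 to miR-30d at -0.34, with miR-429 and miR-200b between them. Only miR-10a was higher, at 0.60 (adjusted p = 0.0358, limma), and 6 did not pass, beside 17.9% called lower and 18.5% called higher of all tested miRs. Their median was -0.32, against -0.04 over all tested miRs, so the means of miR-192 and miR-194 lay below the median of this list. The summed level of the list was 39220 to 51668 in IRI, 34092 to 51743 in sham and 21207 in naïve. The ranges of IRI and sham overlapped.

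Of the leukocyte miRs, miR-155 and miR-150 were higher in IRI on the same arrays, at 1.52 and 0.92, where 18.5% of all tested miRs were called higher. MiR-223 was called too, at 0.98, but it reached the floor of 200 in IRI pools alone and was above background in 9 of 17 samples, so it could be tested only because it was high in IRI. The remaining miR-142-3p and miR-142-5p never reached the floor and were above background in 2 of 17 samples each. The summed level of the 5 was 1448 to 3266 in IRI, 820 to 1176 in sham and 632 in naïve. This sum includes miR-223, tested through its IRI level, and the miR-142 pair under the floor, so its ranges are a description only. The fibroblast miRs miR-199a-3p and miR-214 were higher at 1.87 and 1.16. The third on the array, miR-199a-5p, was called at 0.44, and it also reached the floor through IRI alone. Their sum was 2221 to 9832 in IRI, 1443 to 3325 in sham and 2909 in naïve. The single tested endothelial miR, miR-126-3p, was at -0.03, the smooth muscle miRs miR-143 and miR-145 at -0.14 and -0.13, and none of these passed. The erythroid miRs miR-451 and miR-486 did not pass by their mean (-0.68 and -0.78), but their log2 ratio fell by 0.78 and 0.59 per doubling of time, with adjusted p of 0.0129 and 0.0252 in limma. Both calls were lost under median scaling, with no filter, without day 21, without day 30 and without days 5 and 30. The slope of 0 miRs passed in these settings. At least 1 of the calls was lost without day 7 and without day 14, where the slope of 1 miR passed. The same holds without day 3, where 2 slopes passed and miR-194 had 1 of them. It also holds without the array as a block, where 2 slopes passed and only 1 of these was negative. The part of these shifts in the lower miR-192 and miR-194 was not tested.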

How the data were processed

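Kidney miRs were read in 17 samples on 9 arrays. Per the file headers, the authors deposited 1 scanner intensity per spot, neither corrected nor normalized. They also deposited a table of processed intensities per miR, on a linear scale. How that table was made is not stated in any source read. The members, lists and tests were chosen with earlier results of these data known. Background was removed by normexp (limma 3.58.1 in R 4.3.3, offset 50), and the 6 spots were averaged. The channels of an array were matched by loess on the miR probes alone (span 0.3, 4 iterations), and array means were quantile-normalized together with naïve. The level of each arm was that mean plus (IRI) or minus (sham) an equal share of the log2 ratio. MiRs reaching 200 in at least 1 sample were tested. Log2 IRI/sham ratios per array were fitted with limma against 0, over log2(day) and between early and late days, and log2 levels over log2(day) within each arm, with a threshold of 0.05 after Benjamini-Hochberg adjustment. Exact permutation tests were added for the members. Named are the members, the 4 most correlated tested miRs of each, and the highest and lowest of each cell type list, with others of those lists named after their values were seen. The labels pair the samples by array. The deviations of IRI and sham from their arm means on 1 array had an r between -0.06 and 0.71. The day 5 columns, named A and B, were assigned by the authors' table, whose IRI column had an r of 0.998 with A. Scripts were tested on simulated data. The number of arrays limits the precision.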

Additional observations from a re-analysis of the deposited data

Results flagged for a closer look

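In groups of 8 samples, the gap of an extreme sample to its neighbour was set against the range of the group, a rule by which chance alone marks about 1 in 20 groups. None of the 3 members was marked in either arm. MiR-122, the liver miR, was marked in sham on day 30 (0.978 of the range, level 3092) where it was high. It was also marked in IRI on day 30 (0.860 of the range), where it was low, at a level of 58.1 against 95.8 to 103.9 in the other IRI pools and not above background. Before normalization its signal there was 1.21 MADs above the empty spots, against 0.79 in IRI on day 14, where the level was 95.8. As an IRI level draws on the sham channel of its array, this mark is not separate from that of sham. MiR-1, a muscle miR, was marked in IRI on day 1 (0.759 of the range, level 219).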

How the results depend on the processing

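The mean log2 IRI/sham ratio of miR-192 kept its direction and its call under all 9 other settings (-0.95 to -0.85, adjusted p 0.00640 to 0.0269). MiR-194 did so under 8 of 9, and was at -0.64 (adjusted p = 0.0585) under median scaling. With each day left out, the mean ratio was -1.03 to -0.79 for miR-192 and -0.89 to -0.70 for miR-194, the ratio slope -0.32 to -0.22 and -0.30 to -0.20, late minus early -1.19 to -0.76 and -1.06 to -0.59, the IRI slope -0.29 to -0.19 and -0.38 to -0.27, and the sham slope -0.0237 to 0.0473 and -0.18 to 0.00696. The miR-192 IRI slope passed without day 10 (adjusted p = 0.0388). Calls over all tested miRs then ranged from 26 (without day 21) to 59 for the mean ratio, 0 (without day 21 or 30) to 19 (without day 1) for the ratio slope, 5 to 16 for late minus early, 2 (without day 21) to 22 (without day 10) for the IRI slope and 0 to 4 for the sham slope. They were 100 for the mean ratio with no filter and 30 with the floor set before the ratio.

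The miR-194 ratio slope passed from the authors' values (-0.33) and with the floor set before the ratio (-0.26, adjusted p = 0.0473). The IRI slope passed for miR-192 from the authors' values (-0.34, adjusted p = 0.0290), and with a filter on the mean, which tests fewer miRs, for miR-192 (-0.26, adjusted p = 0.0397) and miR-194 (-0.29, adjusted p = 0.0385). The sham slope, near 0, changed sign for miR-194 from the authors' values (0.0177), for miR-192 with plain background subtraction (0.00287), and without days 5 and 30 for both (0.0333 and 0.00881), an alternative chosen after the data were seen. Under median scaling the ratio slopes shrank to -0.08 and -0.09 and late minus early to -0.23 and -0.06 for miR-192 and miR-194, the IRI slopes were -0.33 and -0.28 (adjusted p = 0.494 and 0.556), and the sham slopes grew to -0.25 and -0.19 (adjusted p = 0.484 and 0.572). The ratio slope of 0 miRs passed under median scaling or with no filter. The r of miR-192 and miR-194 had an adjusted p under 0.05 from the authors' values (ratio 0.865, IRI 0.799) and under median scaling (ratio 0.843, IRI 0.923, sham 0.813). Differences from naïve under median scaling were 2.52 and 2.80 in IRI and 3.45 and 3.44 in sham for miR-192 and miR-194. The cause was not tested for any of these.

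Without the array as a block for the pairing of IRI and sham, the mean ratios were the same and passed (adjusted p = 0.00640 and 0.0186), the ratio slopes were -0.25 and -0.26 (adjusted p = 0.237 and 0.220), and 2 miRs had a slope past the threshold in place of 4.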
